A study of Mus musculus with 12 samples.

Results

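The enzymes described here modify collagen and join it into fibres: the lysyl oxidases Lox, Loxl1, Loxl2, Loxl3 and Loxl4, the lysyl hydroxylases Plod1, Plod2 and Plod3, and the alpha subunits P4ha1 and P4ha2 of collagen prolyl 4-hydroxylase. They were chosen by gene symbol, as every probe set annotated to a single one of these 10 genes. The rule found 16 probe sets for 9 of the 10 genes, out of 18193 genes with such a probe set on the array. Loxl2 had no probe set of its own. Of the 9, Loxl4 lay below the filter on low values, so 8 enzymes were tested among 10916 genes.

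Total RNA from mouse hearts was measured on 12 arrays, 3 in each of 4 groups. Knockout banded hearts came from apelin gene-deficient mice after aortic banding, which narrows the aorta and loads the heart with pressure. Knockout sham hearts came from apelin-deficient mice after the control operation. Wild-type banded and wild-type sham hearts came from wild-type mice after banding and after the control operation. The labels do not give age, strain, sex, the way the gene was deleted, the time after surgery or the chamber sampled. Each array is labelled a biological replicate, with no further word on animals or pools, and p-values measure the spread between these arrays only.

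Collagen chains are modified inside the cell and cross-linked outside it. In the endoplasmic reticulum, prolyl 4-hydroxylase makes the hydroxyproline that keeps the triple helix stable at body temperature, and lysyl hydroxylases make the hydroxylysine from which firm cross-links form. Both need iron, oxygen, 2-oxoglutarate and ascorbate. After secretion, the copper enzymes of the lysyl oxidase family oxidise lysine and hydroxylysine in collagen and elastin to reactive aldehydes, which condense into covalent cross-links. In the pressure-loaded heart these cross-links are known to stiffen scar tissue.

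The labels were checked against apelin and heart markers first. The apelin probe set (Apln, the deleted gene) read 271, 123 and 160 intensity units in knockout banded hearts and 63.7, 111 and 85.4 in knockout sham hearts. It read 205, 223 and 255 in wild-type banded hearts and 333, 323 and 212 in wild-type sham hearts. The library labelled knockout banded 1 therefore lay within the wild-type range for Apln, and whether the probe set covers the deleted part is not given in the sources used here. That array also held the airway transcript Scgb1a1 at 1094, against at most 49.8 on the other 11 arrays, and the airway transcript Bpifa1 at 683. The summed intensity of 10 airway markers was 359.6 to 3121 in knockout banded hearts and at most 397 in the other groups. The fat hormone Adipoq read 392 on it and 327 on wild-type banded 1. Xist read 1255 on wild-type banded 3 and at most 89.2 elsewhere. The cardiomyocyte genes Myh6, Actc1, Tnnt2 and Myl2 read between 8183 and 20030 on all 12 arrays. Because of these readings, results that rest on the library labelled knockout banded 1 are given with and without it.

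Promoter sequence was held for 5 of the 10 enzymes, Plod1, Plod3, P4ha1, P4ha2 and Loxl4, in the RefSeq table for build GRCm38.p6. All 5 had at least 1 hypoxia response element core, ACGTG or GCGTG on either strand, within 250 bases before the start. The same letters stood in 44.0% of 21262 promoters of protein-coding genes. Both cores hold a CpG (C followed by G). The 5 enzyme promoters held 16 to 27 CpG each, against a median of 10 over all promoters. Their GC content was 55.6% to 76%, against a median of 55.6%. Whether base composition accounts for the matches was not tested. The 3 stretches below are shown because they belong to the 2 prolyl hydroxylase subunits, of which P4ha1 passed the test described below, and to the lysyl hydroxylase Plod3, with 4 matches. Capitals mark the core, and CACGC is its reverse strand form. They run 5′ to 3′ on the plus strand, at chr10:59323046-59323196 for P4ha1, chr11:54100674-54100923 for P4ha2 and chr5:136986769-136987018 for Plod3, and each ends before the annotated gene. The last 99 bases before the P4ha1 start lie inside the annotated gene and are not printed.
P4ha1: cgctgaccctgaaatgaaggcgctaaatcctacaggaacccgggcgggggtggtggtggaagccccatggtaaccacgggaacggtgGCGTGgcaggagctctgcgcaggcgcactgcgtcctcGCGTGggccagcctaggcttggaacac
P4ha2: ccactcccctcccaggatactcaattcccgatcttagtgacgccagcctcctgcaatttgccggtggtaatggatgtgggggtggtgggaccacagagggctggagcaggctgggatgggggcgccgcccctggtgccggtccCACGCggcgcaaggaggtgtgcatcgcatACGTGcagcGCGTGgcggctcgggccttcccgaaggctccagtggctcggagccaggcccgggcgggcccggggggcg
Plod3: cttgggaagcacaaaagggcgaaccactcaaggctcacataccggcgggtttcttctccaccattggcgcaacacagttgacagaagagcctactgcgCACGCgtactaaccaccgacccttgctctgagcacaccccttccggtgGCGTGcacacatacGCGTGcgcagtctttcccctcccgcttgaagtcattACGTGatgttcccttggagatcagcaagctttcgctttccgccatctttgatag

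The printed P4ha1 matches began 163 and 126 bases before the start, those of P4ha2 at 107, 78 and 69, and those of Plod3 at 152, 104, 90 and 54. A further P4ha1 match, CACGT on the minus strand, began 16 bases before the start, in the stretch not printed. The GC box GGGCGG, searched on both strands, was in 4 of the 5 promoters and in 42.6% of all promoters. The AP-1 site TGAGTCA or TGACTCA and the SMAD element CAGACA were in 0 of the 5, against 4.06% and 15.2% of all promoters. No match of one motif overlapped another. The motifs were chosen after the values had been seen, and a match describes letters only.

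Lox, the founding lysyl oxidase, had the largest log2 difference of the 8 tested enzymes for banding in knockout hearts, but did not pass the test there with all 12 arrays. Its probe set 1416121_at read 58.5, 448 and 365 intensity units in knockout banded hearts and 55.0, 58.6 and 44.0 in knockout sham hearts. It read 81.2, 74.7 and 63.9 in wild-type banded hearts and 75.4, 67.9 and 80.0 in wild-type sham hearts. Knockout banded 2 and 3 stood above the other 10 arrays, while knockout banded 1 lay among the knockout sham arrays. On the log2(intensity + 16) scale, the Lox difference with banding was 1.79 in knockout hearts (SE 0.49), which missed the threshold of 0.05 with an adjusted p of 0.0603. Without knockout banded 1 the difference was 2.62 (SE 0.16, adjusted p = 6.73e-06). In wild-type hearts the difference was -0.02 (SE 0.49, adjusted p = 0.999).

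Loxl1, a family member that works on elastin, did pass the test in knockout hearts. Its probe set 1451978_at read 558, 1201 and 1048 in knockout banded hearts and 355, 369.5 and 384 in knockout sham hearts. It read 629, 615 and 513 in wild-type banded hearts and 612, 519 and 427 in wild-type sham hearts. All 3 knockout banded arrays stood above all knockout sham arrays, and the wild-type groups overlapped. Knockout banded 1, at 558, lay inside the range of both wild-type groups. Loxl1 rose with banding in knockout hearts by 1.23 on the log2 scale (SE 0.22, adjusted p = 0.0194), a 2.35-fold difference on that scale. Its mean intensity was 936 ± 336 in knockout banded hearts and 369.5 ± 14.4 in knockout sham hearts (SD, n = 3 each). Its wild-type difference was 0.18 (SE 0.22, adjusted p = 0.982).

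Loxl3, a family member that also oxidises collagen lysines, had a smaller difference. Probe set 1418269_at read 85.0, 209 and 193 in knockout banded hearts and 74.9, 105 and 89.6 in knockout sham hearts. It read 123, 142 and 93.4 in wild-type banded hearts and 104, 105 and 106 in wild-type sham hearts. Again knockout banded 2 and 3 were highest, and knockout banded 1 lay inside the knockout sham range. The knockout difference was 0.68 (SE 0.25, adjusted p = 0.148), and 1.05 without knockout banded 1 (SE 0.17, adjusted p = 0.00214). Loxl4, whose main probe set read between 28.1 and 46.0 on all 12 arrays, was too dim to be tested with the others. In a fit with no filter its knockout difference was -0.07 (SE 0.16, adjusted p = 0.895).

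For banding in knockout hearts, the 3 lysyl hydroxylases had differences between 0.09 and 0.27, and none passed with all 12 arrays. Plod1, which hydroxylates lysines of the helix, read 518, 699 and 714 in knockout banded hearts and 601, 566 and 634 in knockout sham hearts. It read 569, 492 and 608 in wild-type banded hearts and 622, 545 and 548 in wild-type sham hearts. The knockout groups overlapped because knockout banded 1 was the lowest of the 6 knockout arrays, and the difference was 0.09 (SE 0.13, adjusted p = 0.753).

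Plod2, the hydroxylase of telopeptide lysines, read 423, 555 and 523 in knockout banded hearts and 441, 400.1 and 386 in knockout sham hearts. It read 392, 345 and 399.8 in wild-type banded hearts and 344, 348 and 298 in wild-type sham hearts. All 3 knockout arrays stood above all 3 wild-type arrays under each operation, while banded and sham arrays overlapped in both genotypes. The genotype difference was 0.38 in banded hearts (SE 0.12, adjusted p = 0.195), 0.30 in sham hearts (SE 0.12, adjusted p = 0.930) and 0.34 averaged over both (SE 0.08, unadjusted p = 0.0013, adjusted p = 0.285). None passed the test, and the second Plod2 probe set, 1416687_at, gave 0.13 for the average (SE 0.11, adjusted p = 0.696).

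Plod3, which also carries the glycosyltransferase activity that adds sugars to hydroxylysine, read 510.2, 627 and 652 in knockout banded hearts and 464, 506 and 506 in knockout sham hearts. It read 516, 488 and 567 in wild-type banded hearts and 561, 483 and 400.2 in wild-type sham hearts. The knockout groups did not overlap, yet the difference of 0.26 missed the threshold (SE 0.13, adjusted p = 0.262).

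Of the prolyl hydroxylase subunits, whose promoters are printed above, P4ha1 passed the test in knockout hearts and P4ha2 did not; the difference between them was not tested. P4ha1 read 312, 704 and 632 in knockout banded hearts and 198, 217 and 167 in knockout sham hearts. It read 217, 284 and 312 in wild-type banded hearts and 225, 224 and 186 in wild-type sham hearts. Each knockout banded array exceeded each knockout sham array, although knockout banded 1 was close to the highest wild-type banded array. P4ha1 rose with banding in knockout hearts by 1.36 (SE 0.24, adjusted p = 0.0189), a 2.56-fold difference on that scale, and its wild-type difference was 0.33 (SE 0.24, adjusted p = 0.979). Its mean intensity was 549.6 ± 209 in knockout banded hearts and 194 ± 24.8 in knockout sham hearts (SD, n = 3 each).

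P4ha2 read 382, 538 and 561 in knockout banded hearts and 462, 392 and 354 in knockout sham hearts. It read 342, 422 and 469 in wild-type banded hearts and 399, 324 and 332 in wild-type sham hearts. Its groups overlapped in both genotypes. The difference was 0.27 in knockout hearts (SE 0.16, adjusted p = 0.359) and 0.21 in wild-type hearts (SE 0.16, adjusted p = 0.979).

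**Figure D1:**
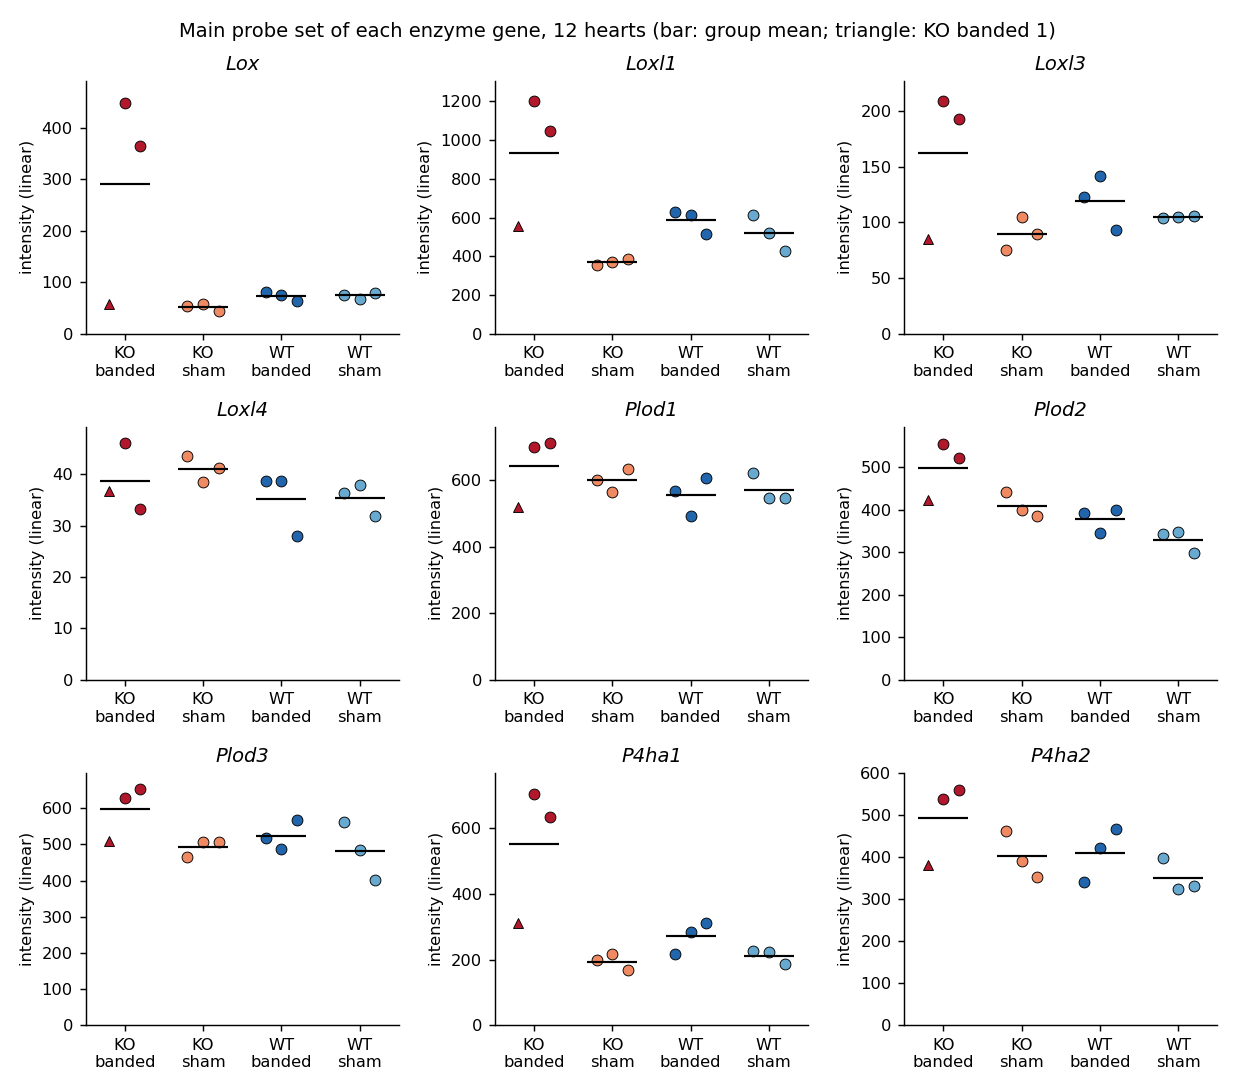
Intensity of each of the 9 enzymes with a probe set of its own (main probe set) on each array, by group, with a line at each group mean (n = 3 each); the triangle is the library labelled knockout banded 1. Lox reads 448 and 365 on the other 2 knockout banded arrays and at most 81.2 on the remaining arrays.

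With banding in knockout hearts, 2 of the 8 enzymes passed the test upward, Loxl1 and P4ha1, and 0 downward, where 2.05% of all genes tested were called higher. The median difference of the 8 was 0.48, against -0.02 for all genes. In 3 of the 8, Loxl1, Plod3 and P4ha1, every knockout banded array lay above every knockout sham array, as in 12.2% of all genes. Leaving out knockout banded 2 or 3, or any of the 3 knockout sham arrays, ended both calls, with adjusted p between 0.0567 and 0.0945 for Loxl1 and between 0.0502 and 0.0937 for P4ha1. Fitting the knockout groups alone also ended both (adjusted p = 0.0664 each).

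Leaving out the library labelled knockout banded 1 changed the count to 5 of 8, where 6.25% of all genes were called higher. Lox, Loxl1, Loxl3, Plod2 and P4ha1 passed, with Loxl1 at 1.56 (SE 0.14) and P4ha1 at 1.71 (SE 0.16). Plod2 was at 0.39 (SE 0.11, adjusted p = 0.0395). Plod1, Plod3 and P4ha2 did not pass, at 0.23, 0.37 and 0.44 with adjusted p of 0.199, 0.0843 and 0.0741. By main probe set, both remaining knockout banded arrays lay above all knockout sham arrays for 8 of 8 enzymes, as they did for 22.3% of all genes. The second Plod2 probe set, 1416687_at, overlapped. It read 488 and 395 on the remaining knockout banded arrays and 347, 411 and 385 in knockout sham hearts. With all arrays its banding difference in knockout hearts was 0.11 (SE 0.15, adjusted p = 0.754 by limma).

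With banding in wild-type hearts, 0 of the 8 passed by limma, as for 0% of all genes tested. At an unadjusted p under 0.05 there were also 0 of the 8, and 534 of all genes. The 8 differences ran between -0.04 and 0.33 with a median of 0.16. By main probe set, all wild-type banded arrays exceeded all wild-type sham arrays for 0 of 8, against 3.76% of all genes. Averaged over the genotypes, Loxl1 (0.70, SE 0.16, adjusted p = 0.0469) and P4ha1 (0.84, SE 0.17, adjusted p = 0.0358) passed, 2 of 8 against 0.934% of all genes called higher. Without knockout banded 1 the averaged count was 5 of 8, with 4.36% called higher among all genes. It was 2 without wild-type sham 1 and 0 without any other single array.

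The interaction asks whether banding acted differently in the genotypes, and 0 of the 8 enzymes passed it with all 12 arrays, as for 0% of all genes. The unadjusted limma p was under 0.05 for 3 of the 8 and for 994 of all genes. These were Loxl1 at 1.06 (SE 0.32, adjusted p = 0.442), P4ha1 at 1.03 (SE 0.34, adjusted p = 0.442) and Lox at 1.81 (SE 0.69, adjusted p = 0.498). Without knockout banded 1 these 3 passed, against 1.04% of all genes called higher. They were then at 2.65 for Lox (SE 0.21, adjusted p = 0.000342), 1.39 for Loxl1 (SE 0.19, adjusted p = 0.0066) and 1.38 for P4ha1 (SE 0.21, adjusted p = 0.00915).

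Between genotypes in banded hearts, 0 of the 8 passed, against 0% of all genes, with 4 of the 8 and 1594 of all genes at an unadjusted p under 0.05. The largest was Lox at 1.41 (SE 0.49, adjusted p = 0.226), followed by P4ha1 at 0.91 (SE 0.24, adjusted p = 0.157). Plod2 alone had every knockout banded array above every wild-type banded array, as 10.1% of all genes had. Without knockout banded 1, Lox, Loxl1, Loxl3, Plod2 and P4ha1 passed, 5 of 8 against 3.22% of all genes called higher. By main probe set, the 2 remaining arrays exceeded all wild-type banded arrays for 8 of 8 enzymes and for 20.9% of all genes. Plod2 probe set 1416687_at overlapped here too, with 488 and 395 on these arrays and 430, 343 and 426 in wild-type banded hearts.

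Between genotypes in sham hearts, 0 of the 8 passed, against 0% of all genes, with 1 of the 8 and 570 of all genes at an unadjusted p under 0.05. Lox at -0.40 and Loxl1 at -0.46 (adjusted p = 0.981 and 0.930) had every knockout sham array below every wild-type sham array, 2 of 8 against 5.32% of all genes. Plod2 had every knockout sham array above, 1 of 8 against 5.5%. Averaged over surgery, 0 of 8 passed, against 0% of all genes, with 2 of the 8 and 1158 of all genes at an unadjusted p under 0.05. Without knockout banded 1, Lox, Plod2 and P4ha1 passed the averaged comparison, 3 of 8 against 0.733% of all genes called higher. In that fit the genotype difference of Lox was 2.24 in banded hearts and -0.40 in sham hearts. P4ha1 had 1.27 and -0.12, so for Lox and P4ha1 the average joined differences of opposite sign. Plod2 had 0.49 and 0.30.

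**Figure D2:**
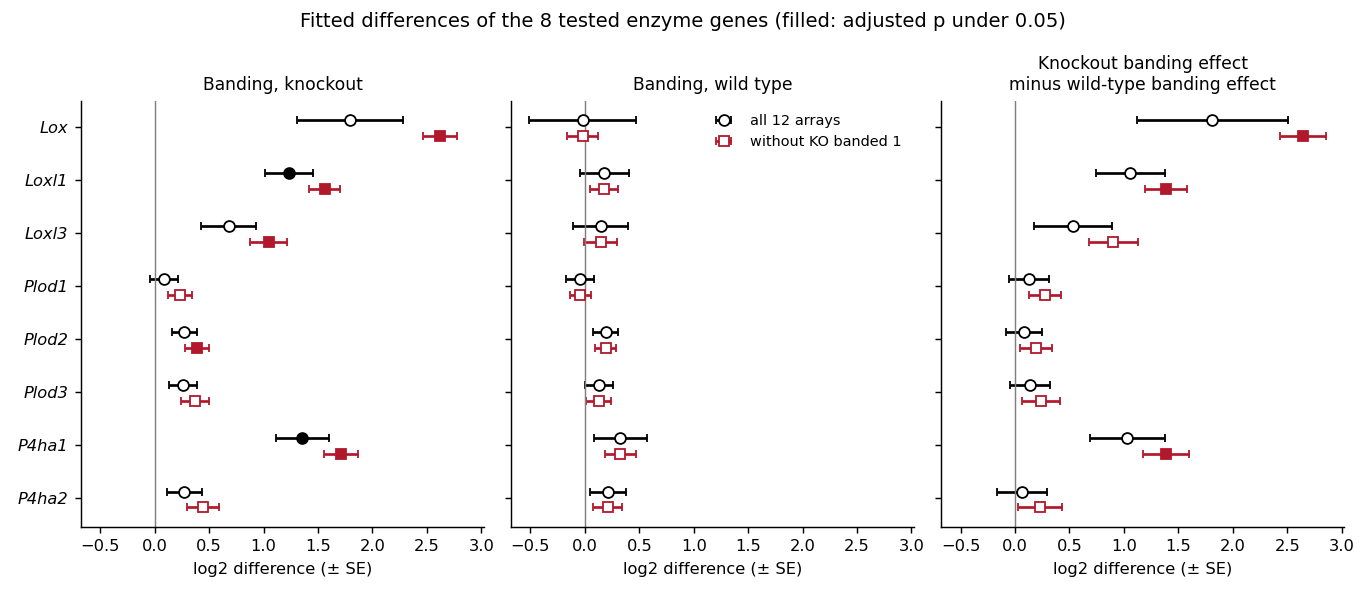
Log2 differences of the 8 enzymes with their standard errors for banding in knockout hearts, banding in wild-type hearts and the interaction, with all 12 arrays and without the library labelled knockout banded 1. The knockout differences lie between 0.09 and 1.79 with all arrays, and the wild-type differences between -0.04 and 0.33.

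Other probe sets of the same genes were set beside the main ones. The second P4ha1 probe set, 1426519_at, read 162, 445 and 436 in knockout banded hearts and 116, 108 and 122 in knockout sham hearts, and passed at 1.34 (SE 0.29, adjusted p = 0.0345). On it all wild-type banded arrays (161, 261 and 186) also lay above all wild-type sham arrays (135, 148 and 156). That wild-type difference was 0.41 (SE 0.29, adjusted p = 0.943 by limma). The second Lox probe set, 1448228_at, read 28.8, 219.6 and 196 in knockout banded hearts and between 29.5 and 40.2 in knockout sham hearts. Its difference was 1.32 (SE 0.48, adjusted p = 0.154), with knockout banded 1 again at the low end. The second Loxl1 probe set, 1436063_at, was dim: 4.12, 99.8 and 78.8 in knockout banded hearts and 16.7, 11.4 and 5.27 in knockout sham hearts. The third Lox probe set read at most 19.1 on all 12 arrays. Averaging the Loxl1 probe sets ended its call (adjusted p = 0.104).

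**Figure D3:**
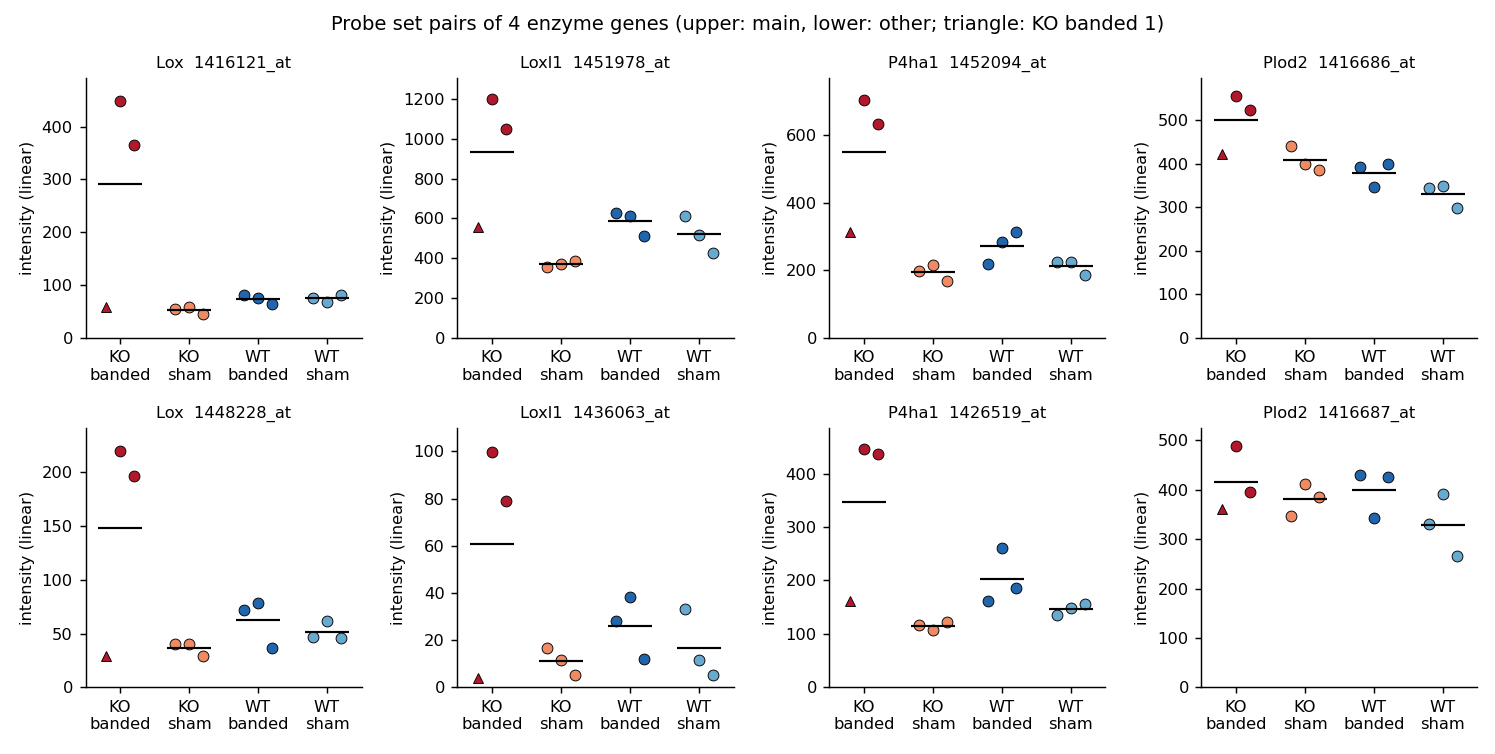
Intensity on each array, by group, of the main probe set (upper row) and the brightest other probe set (lower row) of Lox, Loxl1, P4ha1 and Plod2, with a line at each group mean (n = 3 each). Both P4ha1 probe sets place all 3 knockout banded arrays above all knockout sham arrays, while the main Lox probe set has knockout banded 1 at 58.5, inside the knockout sham range.

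Some substrates of these enzymes passed in the same comparison. The gene lists here and below were chosen with earlier results of these data known. Of 7 fibrillar collagens tested, 4 rose with banding in knockout hearts and 0 fell: Col3a1 by 1.47, Col1a1 by 1.18, Col5a1 by 0.68 and Col5a2 by 1.61, with adjusted p between 0.0225 and 0.0477. Of 10 genes for elastin, its microfibrils and lysyl oxidase scaffolds, 3 rose: Eln, elastin itself, by 1.62, Mfap5 by 1.59 and Postn, periostin, by 2.63. The medians of these lists were 1.18 and 0.92, against -0.02 for all genes. With knockout banded 1 left out, 6 of the 7 and 7 of the 10 passed upward. Among all genes tested, 2.05% were called higher with all arrays and 6.25% without that array. In wild-type hearts 0 passed in either list, with medians of 0.17 and 0.13.

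Genes that fold or process collagen were counted next, where 1.76% of all genes were called lower with all arrays and 6.95% without knockout banded 1. Of 18 folding and modification genes, 0 passed (median 0.14), with P3h2, a prolyl 3-hydroxylase, at 0.70 (adjusted p = 0.180). Of 6 procollagen processing genes, Pcolce, an enhancer of propeptide removal, rose by 0.88 (adjusted p = 0.0431) and Adamts3, a procollagen N-proteinase, fell by 1.15 (adjusted p = 0.0213). Of 5 other cross-linking enzymes 0 passed, with the transglutaminase Tgm2 at 0.59 (adjusted p = 0.0983). With knockout banded 1 left out, 5 of the 18 folding genes passed upward and 1 downward (median 0.24). The processing genes then had 2 upward and 1 downward, and the other cross-linking enzymes 1 upward.

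Genes for the supply and the control of the hydroxylases were read the same way. Among all genes, 2.05% were called higher and 1.76% lower with all arrays. These shares were 6.25% and 6.95% without knockout banded 1. Of 10 cofactor genes 0 passed, with Idh1, which makes 2-oxoglutarate, at -1.01 (adjusted p = 0.0930). Of 9 oxygen-sensing genes 0 passed, with the hypoxia factor Hif1a at 0.61 (adjusted p = 0.0684) and the prolyl hydroxylase Egln1 at -0.37 (adjusted p = 0.0788). Of 17 genes known to be induced by hypoxia 0 passed, and their median was 0.02. Of 14 genes of TGF-beta signalling, a pathway known to raise collagen and lysyl oxidase expression, 3 rose: the ligand Tgfb2 by 1.79, Ccn2 by 2.50 and Skil by 0.69. Leaving out knockout banded 1 gave 1 gene upward and 2 downward in both the cofactor and the oxygen-sensing list. It gave 3 upward and 0 downward among the hypoxia-induced genes (median 0.18), and 5 upward and 1 downward in the TGF-beta list. In wild-type hearts 0 genes passed in any of these lists.

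Some markers of activated fibroblasts passed in the same comparison. Of 8 tested, 3 rose with banding in knockout hearts, Postn, Meox1 by 1.80 and Cilp by 2.47, and 5 did not pass, with a median of 1.77. Postn was also counted in the elastin list above. The count was 5 of the 8 when knockout banded 1 was left out. The shares of all genes called higher were 2.05% and 6.25%. The levels that follow cover all 10 listed markers, tested or not. Their mean log2 level ran between 7.47 and 9.26 in knockout banded hearts and between 7.21 and 7.33 in knockout sham hearts. It ran between 7.56 and 7.65 in wild-type banded hearts and between 7.26 and 7.45 in wild-type sham hearts. Their summed intensity was 2762 to 12297 in knockout banded hearts and 2706 to 4156 in knockout sham hearts. The part of activated fibroblasts in the enzyme differences was not tested, and in bulk tissue more cells of a type and more RNA per cell cannot be told apart.

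Of 10 markers of fibroblasts in general, 1 rose, Pdgfrl by 0.79, with a median of 0.05. All 11 cardiomyocyte markers had values below 0, of which Ryr2 passed at -0.53 (adjusted p = 0.0320). Their summed intensity was 88337 to 90944 in knockout banded hearts and 106345 to 118605 in knockout sham hearts. It was 101599 to 124912 in wild-type banded hearts and 88591 to 166740 in wild-type sham hearts. The lowest wild-type sham array thus lay inside the knockout banded range. Of 9 smooth muscle and pericyte markers, 1 fell, Abcc9 by 0.69. Among 11 endothelial, 11 macrophage, 8 atrial, 6 mesothelial, 3 adipocyte and 2 airway markers tested, 0 passed. The shares of all genes called were 2.05% higher and 1.76% lower with all arrays, and 6.25% and 6.95% without knockout banded 1. With knockout banded 1 left out, 2 fibroblast markers and 1 endothelial marker passed upward. At the same time 1 cardiomyocyte, 1 smooth muscle and 1 atrial marker passed downward, so most of these lists had 1 called gene or none. The part of these cell types in the enzyme differences was not tested.

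**Figure D4:**
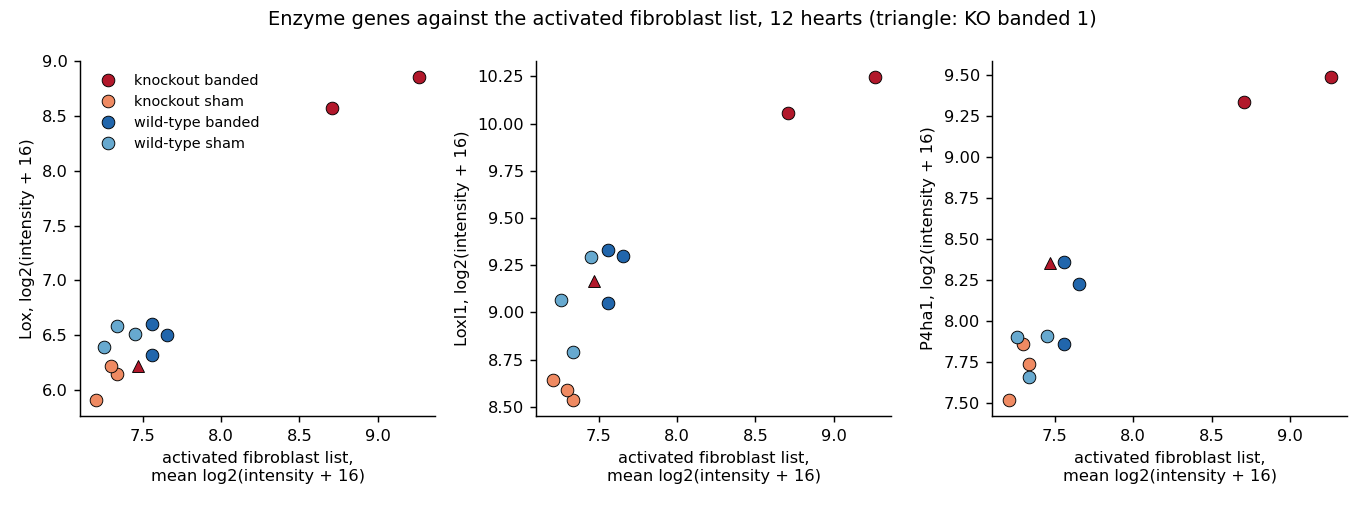
Log2 level of Lox, Loxl1 and P4ha1 on each array against the mean log2 level of the activated fibroblast markers, by group; the triangle is the library labelled knockout banded 1. The marker level reaches 9.26 among knockout banded arrays and at most 7.65 in the other 3 groups.

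The genes most like each enzyme were ranked by Pearson's r of log2 values over the 12 arrays, which share their groups and the high knockout banded 2 and 3. Lox was most like Uck2 (r = 0.975), Fbln2 (0.970) and Adcy7 (0.963). Over the 10 arrays other than knockout banded 2 and 3 these were 0.714, 0.435 and 0.577. P4ha1 was most like Vcan (0.972), Enah (0.971) and Akap2 (0.956), which gave 0.845, 0.861 and 0.701 over those 10 arrays. Loxl1 was most like Ppfibp1 (0.968, then 0.889) and Loxl3 most like Cd9 (0.957, then 0.924). Among the enzymes, Lox and P4ha1 had r = 0.909 over 12 arrays and 0.214 over those 10, and Lox and Loxl1 had 0.906 and 0.663. All 28 pairs of enzymes were positive over 12 arrays, but 12 were negative once the 2 arrays farthest from the first gene's median were left out. Lox and Plod2, for example, had 0.705 over 12 arrays and -0.616 over 10, and Loxl3 and Plod2 had 0.512 and -0.575. Plod2 was most like Sdcbp (0.912), Plod3 most like Txnl1 (0.946), Plod1 most like Cap2 (0.916) and P4ha2 most like Tigar (0.915).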

How the data were processed

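The authors deposited 1 linear intensity per probe set and array. How it was made (software, background correction, scaling) is not given in the sources used here. All arrays had a trimmed mean of 150 (2% off either end), so they were not rescaled. Of 45101 probe sets, 64 controls were left out; the platform annotation gave 1 gene for 34945, several for 932 and none for 9160. Of the first, 34741 matched RefSeq by Entrez number.

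Tests used log2(intensity + 16) of a gene's brightest single-gene probe set by mean, and the upper 60% of 18193 genes were tested with limma 3.58.1 in R 4.3.3, as 4 group means over 12 arrays with 8 residual degrees of freedom and a trended prior, and Benjamini-Hochberg adjustment over all genes. The script was tested on simulated data. Depth does not apply to arrays, and 3 arrays a group limit the precision.

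All 10 enzymes are described. From each other list, the called genes and otherwise those with the smallest p are named. Enzymes and lists were chosen with earlier results of these data known. Same-numbered arrays did not pair. Alternatives covered the filter, pseudocount, scaling, probe set choice, array weights, replicate block and single arrays.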

Additional observations from a re-analysis of the deposited data

How the results depend on the processing

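Counts of enzymes that passed depended on the arrays and the model. With banding in knockout hearts the count was 2, against 6 with array weights, 1 with probe sets averaged, 0 with only the groups compared, 0 to 5 with 1 array left out, and 5 without knockout banded 1 and wild-type banded 3. Averaged over genotypes it was 2, against 0 with no filter, 0 without the variance trend, 1 with probe sets averaged, 1 with every single-gene probe set tested, 4 with both arrays left out and 0 to 5 with 1 left out. For genotype in banded hearts it was 0, against 4 with array weights, 4 with both arrays left out and 0 to 5 with 1 left out. For genotype averaged over surgery and for the interaction it was 0, against 3 with both arrays left out and 0 to 3 with 1 left out. Among single arrays left out, each highest count came without knockout banded 1. Banding in wild type and genotype in sham hearts stayed at 0 throughout.

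The replicate block, with numbers that the arrays share by label only, left 2 enzymes in knockout banding and 0 in the averaged comparison. Same-numbered arrays had deviations correlated between -0.28 and 0.23, and 2 of 12 arrays correlated best with their own number. Among all genes, knockout banding called 416, against 74 with only the groups compared and 1870 with array weights. Leaving out 1 array gave 9 without knockout sham 3, 11 without knockout banded 3, 17 without knockout banded 2, 40 without knockout sham 2, 88 without knockout sham 1 and 1441 without knockout banded 1.

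Over 25 settings, 1362 enzyme values were recomputed: 41 calls were lost, 41 were gained and 0 called values changed sign. The cause was not tested.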

Other observations

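The 2 probe sets that the annotation lists for Loxl2, 1431004_at and 1452436_at, are each listed for 2 genes, so neither was assigned to it. Probe set 1431004_at read 121, 284 and 227 in knockout banded hearts and 117, 111 and 77.4 in knockout sham hearts. It read 126, 108 and 149 in wild-type banded hearts and 126, 139 and 88.2 in wild-type sham hearts. All knockout banded arrays stood above all knockout sham arrays, and the difference was 0.89 (SE 0.26, adjusted p = 0.158 by limma over 45037 probe sets). Probe set 1452436_at differed by 0.51 (SE 0.21, adjusted p = 0.335).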
